A study of Rattus norvegicus with 24 samples.

Results

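The 8 genes described here, which mark microglia, the resident macrophages of the brain, or encode the recognition part of complement component C1, were followed in rat nucleus accumbens (NAc) and ventral tegmental area (VTA). They were taken by Ensembl identifier, and all 8 of 8 were found on their stated chromosome among the 32552 genes of the count tables. The rule that names them uses no measured value. The NAc is the striatal target of the dopamine neurons of the VTA, and both belong to the reward circuit that opioids act on. Sprague Dawley rats of both sexes had received fentanyl, a synthetic opioid agonist, or saline, and by its title the study concerns withdrawal from opioids and how rats choose between the drug and food. Per the labels, brains were taken in place of the last choice session, bilateral punches were cut from each area, and total RNA depleted of ribosomal RNA was sequenced as paired ends. The NAc gave 4 fentanyl females, 4 fentanyl males, 3 saline females and 3 saline males. The VTA gave 3 fentanyl females, 3 fentanyl males, 2 saline females and 2 saline males. The 24 libraries came from 14 rats, each library from 1 animal, and 10 rats (6 fentanyl and 4 saline) gave a library from both areas. Age, fentanyl dose and route are not given in the labels.

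Microglia enter the brain early in development and are kept alive by signals through the Csf1 receptor. They sense neurons through surface receptors, take up debris and synapses that carry complement tags, and change their gene expression after injury, infection or drug exposure. The genes fall into 4 roles. Csf1r (the receptor of CSF1 and IL-34, needed for microglial survival) and Cx3cr1 (the receptor of the neuronal chemokine fractalkine) receive signals from other cells. Itgam (CD11b, the alpha chain of complement receptor 3) and Ptprc (CD45, a membrane tyrosine phosphatase of blood-lineage cells) sit at the cell surface. Cd68 (a lysosomal glycoprotein of phagocytes) and Aif1 (Iba1, a calcium- and actin-binding protein used to stain microglia) lie inside the cell. C1qa and C1qb encode the A and B chains of C1q, the part of the classical complement pathway that recognises its targets, made in brain mainly by microglia. Expression of these genes is not confined to microglia. Several, Ptprc, Itgam, Cd68 and Aif1 among them, are also expressed by blood leukocytes and by macrophages at the brain's borders. The tables give identifiers without names, so marker lists for those cells, for other brain cells, for either brain area and for the rest of the complement pathway were not analysed here.

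In mouse and human myeloid cells many of these genes are controlled by PU.1, the product of Spi1, an ETS transcription factor that binds a purine-rich site known as the PU box. The letters GAGGAA, read on both strands (TTCCTC on the other), were searched in RefSeq promoters of build GRCr8, from 250 bases before to 50 bases after each gene's start. Of the 8 genes 7 had a promoter there (all but Aif1), and 5 of those 7 held the motif (Itgam, Cd68, C1qb, Ptprc and Csf1r), against 27.6% of 33469 promoters in the table. The 250 bases before the start are printed for the 4 genes that differed between the areas, because all 4 were higher in the VTA. They are written 5′ to 3′ on the gene's strand, with the motif in capitals. Csf1r is chr18:56834129-56834378 on the plus strand, Cx3cr1 chr8:128677067-128677316 on the minus strand, Ptprc chr13:52259747-52259996 on the minus strand and C1qa chr5:154419934-154420183 on the minus strand.
Csf1r: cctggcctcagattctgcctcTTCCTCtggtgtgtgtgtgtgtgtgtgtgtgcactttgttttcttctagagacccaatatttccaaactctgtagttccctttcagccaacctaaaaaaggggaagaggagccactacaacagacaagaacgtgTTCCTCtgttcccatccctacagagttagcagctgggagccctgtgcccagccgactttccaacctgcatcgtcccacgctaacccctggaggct
Cx3cr1: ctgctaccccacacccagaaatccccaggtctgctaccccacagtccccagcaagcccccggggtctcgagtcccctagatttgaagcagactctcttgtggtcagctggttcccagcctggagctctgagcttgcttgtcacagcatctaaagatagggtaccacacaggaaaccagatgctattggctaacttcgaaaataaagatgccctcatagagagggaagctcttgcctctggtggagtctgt
Ptprc: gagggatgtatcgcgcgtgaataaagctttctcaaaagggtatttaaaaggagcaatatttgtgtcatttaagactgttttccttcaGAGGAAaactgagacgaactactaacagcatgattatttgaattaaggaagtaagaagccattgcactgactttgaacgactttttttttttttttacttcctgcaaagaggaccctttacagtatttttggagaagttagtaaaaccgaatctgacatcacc
C1qa: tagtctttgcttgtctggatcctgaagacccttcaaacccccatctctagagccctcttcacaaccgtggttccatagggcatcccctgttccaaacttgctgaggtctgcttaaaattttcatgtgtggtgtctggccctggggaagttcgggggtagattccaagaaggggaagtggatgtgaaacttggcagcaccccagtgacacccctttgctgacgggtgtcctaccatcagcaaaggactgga
With the gene's start at 0, the motif began at -229 and -95 in Csf1r, both in the reverse orientation, and at -163 in Ptprc in the forward orientation. Cx3cr1 and C1qa held no match in this window. A match is a string of letters and not a measured binding site.

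All 8 genes were measured above 0 in all 24 libraries, and Csf1r carried the most reads, 47.7% of the counts of the 8 genes in the NAc and 46.5% in the VTA. Levels of different genes are compared as CPM (counts scaled to the same TMM-adjusted total in every library) divided by exon length in kb. In the VTA the mean level per kb was 16.5 for Csf1r, 15.7 for C1qa, 12.9 for Cx3cr1, 4.99 for C1qb, 2.79 for Itgam, 2.48 for Cd68, 2.20 for Ptprc and 0.986 for Aif1 (n = 10). In the NAc it was 13.5 for Csf1r, 11.8 for C1qa, 9.45 for Cx3cr1, 4.82 for C1qb, 2.53 for Cd68, 2.31 for Itgam, 1.43 for Ptprc and 0.781 for Aif1 (n = 14). The ranges of every pair of neighbours in both orders overlapped. Within a library, Cx3cr1 exceeded C1qb in 10 of 10 VTA and 14 of 14 NAc libraries, and Ptprc exceeded Aif1 in 10 of 10 VTA and 14 of 14 NAc libraries. The order of Csf1r over C1qa held in 5 of 10 VTA and 11 of 14 NAc libraries, and Cd68 over Itgam in 8 of 14 NAc libraries, while Itgam stood over Cd68 in 8 of 10 VTA libraries. C1qa and C1qb, whose protein chains join in the same complex, differed in mean level per kb in both areas. The means were 15.7 against 4.99 in the VTA and 11.8 against 4.82 in the NAc. Such a comparison between genes rests on the annotated exon length and on how reads were assigned, which were not checked.

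**Figure D1:**
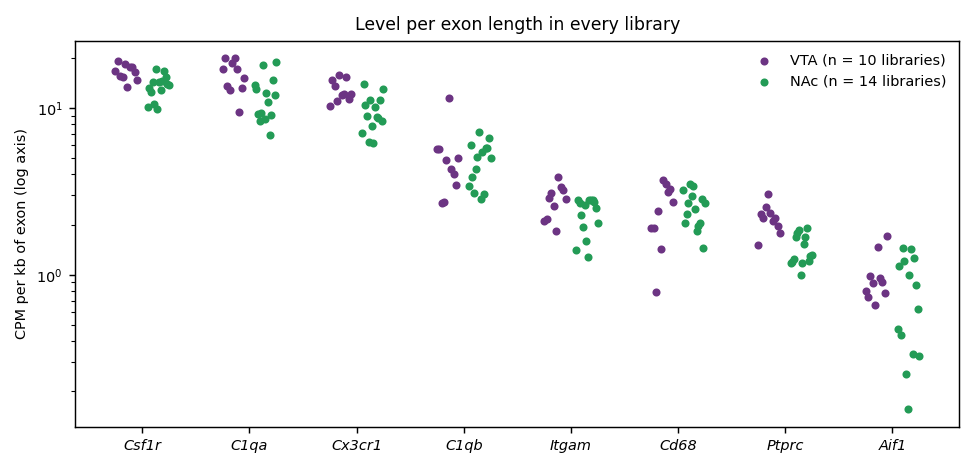
Level of each gene in CPM per kb of exon (vertical log axis) in each VTA library (n = 10) and each NAc library (n = 14), 1 point a library. Cx3cr1 lies above C1qb within each of the 24 libraries, and Aif1 has the lowest means, 0.986 in the VTA and 0.781 in the NAc.

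Total counts were 4.49 M to 6.3 M in VTA and 3.46 M to 5.01 M in NAc libraries, of which the 8 genes held 578 to 1045 counts in a VTA library and 263 to 662 in a NAc library. Mitochondrial features took 17.6% to 26.9% of VTA and 22.1% to 36.7% of NAc counts. A library stood apart on the first principal component of 2000 genes in each area. In the NAc it was fentanyl female replicate 1 (41.97, the others -14.8 to 14.9), and in the VTA fentanyl female replicate 2 (48.66, the others -21.0 to 11.2). Results that use them were also fitted without them. The sources used here give no build, annotation or strand setting for the counts. In the coordinates of the tables Csf1r (ENSRNOG00000018414) lies on chromosome 18 at 56414488 to 56458300, Cx3cr1 (ENSRNOG00000018509) on 8 at 128740756 to 128754514, Itgam (ENSRNOG00000019728) on 1 at 199495298 to 199623960 and Ptprc (ENSRNOG00000000655) on 13 at 55061562 to 55173692. Cd68 (ENSRNOG00000037563) lies on 10 at 56268720 to 56270640, Aif1 (ENSRNOG00000000853) on 20 at 5161333 to 5166448, C1qa (ENSRNOG00000012807) on 5 at 155261250 to 155264143 and C1qb (ENSRNOG00000012804) on 5 at 155255005 to 155258392. No other feature shares exon bases with any of the 8, though 1 feature overlaps the span of Itgam.

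Comparing the 2 areas within a rat asks where these genes are more highly expressed, and 4 of the 8 genes rose in the VTA while 0 fell. These were the receptors Csf1r and Cx3cr1, the phosphatase Ptprc and the complement gene C1qa, each 1.27- to 1.56-fold higher in the VTA than in the NAc of the same rats. By edgeR's quasi-likelihood test with rat as a block, 62.3% of 14795 genes differed between the areas at an adjusted p under 0.05; 31.7% of the genes tested were higher in the VTA and 30.6% lower. The median log2 difference was 0.38 over the 8 genes and 0.02 over all genes tested. Differences between these areas are thus common, and 4 called genes in 8 is no larger a share than the 62.3% called in either direction. All 4 were higher in the VTA, and 4 in 8 is a larger share than the 31.7% of all genes higher there. Whether the 8 genes depart from all genes in this was not tested. In bulk tissue, fewer cells of a type and less RNA per cell cannot be told apart.

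Csf1r had 53.3, 66.1 and 76.3 CPM in the lowest, median and highest VTA library of the 10 rats, against 39.6, 51.7 and 68.7 CPM in their NAc libraries. The ranges overlapped, yet the VTA library was the higher of the pair in 10 of 10 rats, by 1.05- to 1.64-fold. The log2 difference was 0.34 ± 0.07 (SE; 1.27-fold, 95% interval 1.14 to 1.41; edgeR adjusted p = 0.000667). Cx3cr1 had 13.6, 16.1 and 21.0 CPM in the VTA against 8.32, 12.6 and 18.4 CPM in the NAc as lowest, median and highest. It too was higher in the VTA of 10 of 10 rats, with ratios of 1.01 to 1.76. Its log2 difference was 0.45 ± 0.11 (1.36-fold, 1.16 to 1.61; edgeR adjusted p = 0.00236).

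Ptprc had 7.62, 11.0 and 15.5 CPM as lowest, median and highest in the VTA, against 5.05, 6.41 and 9.41 CPM in the NAc. Its difference was the largest of the 4 that rose, with every rat higher in the VTA by 1.28- to 2.34-fold. The log2 difference was 0.64 ± 0.14 (1.56-fold, 1.28 to 1.91; edgeR adjusted p = 0.000543). C1qa had 9.90, 16.9 and 20.9 CPM in the VTA against 7.25, 12.0 and 19.1 CPM in the NAc. It was higher in the VTA of 9 of 10 rats, and saline female replicate 1, with a ratio of 0.890, was the exception. Its log2 difference was 0.43 ± 0.13 (1.35-fold, 1.12 to 1.63; edgeR adjusted p = 0.00801). Csf1r, Cx3cr1 and Ptprc were thus higher in the VTA of every rat, 3 of 8 genes, against 17.6% of all genes tested.

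The other 4 genes did not pass the test. Itgam was higher in the VTA of 8 of 10 rats, with a log2 difference of 0.24 ± 0.11 and an edgeR adjusted p of 0.0675. Without fentanyl male replicate 2 the difference was 0.30 and the adjusted p 0.0300. Aif1, with 1 to 18 counts a library, had ratios of 0.659 to 9.36 and a log2 difference of 0.56 ± 0.40 (edgeR adjusted p = 0.227). Cd68 was higher in the VTA of 5 of 10 rats and C1qb of 3 of 10, with log2 differences of 0.06 ± 0.24 and -0.09 ± 0.19 (edgeR adjusted p = 0.855 and 0.700). The 2 chains of C1q therefore stood on different sides of the test; whether their area differences differ from each other was not tested.

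Female fentanyl rat 1 gave the library that stood apart in the NAc, and rat 2 the one in the VTA. Without these rats the log2 differences of the same 4 genes were 0.37 for Csf1r, 0.45 for Cx3cr1, 0.75 for Ptprc and 0.60 for C1qa. The mitochondrial share was lower in VTA libraries. With mitochondrial features left out of the totals, the 4 differences were 0.35, 0.46, 0.66 and 0.44 in the same order, and all 4 passed.

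**Figure D2:**
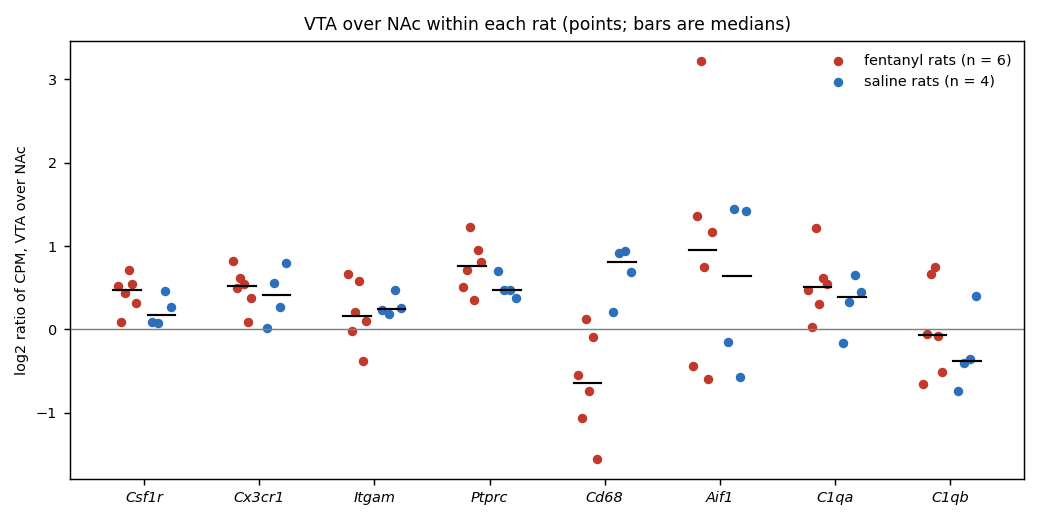
Log2 ratio of CPM, VTA over NAc, within each of 6 fentanyl rats and 4 saline rats, 1 point a rat, with bars at the medians. Csf1r, Cx3cr1 and Ptprc lie above 0 in all 10 rats, and Cd68 is above 0 in 4 of 4 saline rats and below 0 in 5 of 6 fentanyl rats.

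Summed over the 8 genes, the level was higher in the VTA of all 10 rats, in fentanyl rats at 140 ± 11.8 CPM in the VTA against 107 ± 21.0 CPM in the NAc (SD, n = 6). In saline rats it was 143 ± 9.65 CPM in the VTA against 118 ± 7.73 CPM in the NAc (SD, n = 4). This sum is weighted to Csf1r, with 46.5% of the counts in the VTA and 47.7% in the NAc. Cd68 and C1qb, higher in the VTA of 5 and 3 of 10 rats, held 2.22% and 3.92% of the VTA counts. The sum therefore does not show a rise of each gene. In the 6 fentanyl rats alone the same 4 genes rose in the VTA, while of all genes 27.5% rose, 26.4% fell and 54% were called in either direction. Their log2 differences were 0.77 ± 0.17 for Ptprc, 0.45 ± 0.09 for Csf1r, 0.49 ± 0.15 for Cx3cr1 and 0.53 ± 0.16 for C1qa (edgeR adjusted p 0.00117, 0.000636, 0.00885 and 0.0105). These 4 of the 8 genes were higher in the VTA of 6 of 6 fentanyl rats, against 22.1% of all genes. The call of C1qa ended without fentanyl female replicate 7 (0.36, adjusted p = 0.0717). That of Cx3cr1 ended without female fentanyl rats 1 and 2 together (0.49, adjusted p = 0.0719).

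In the 4 saline rats edgeR called 0 of the 8 genes, against 45.1% of all genes (22.3% higher and 22.8% lower), and DESeq2 also called 0; 2 had an unadjusted p under 0.05, against 51.8% of all genes. These were Ptprc (0.51 ± 0.21, edgeR adjusted p = 0.0552) and Cx3cr1 (0.41 ± 0.17, edgeR adjusted p = 0.0658). With 1 rat left out that count was 1, or 0 without saline male replicate 3. With mitochondrial features left out of the totals Ptprc passed (0.53, adjusted p = 0.0452). Csf1r, Cx3cr1, Itgam, Ptprc and Cd68 were higher in the VTA of 4 of 4 saline rats, 5 of 8 genes against 28.3% of all genes.

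Whether the area difference itself depends on fentanyl was tested as the difference in fentanyl rats minus that in saline rats. By edgeR 0 of the 8 genes and 0 of 14795 genes passed, with 1 of the 8 and 840 of all genes (5.68%) at an unadjusted p under 0.05; DESeq2 called 0 of the 8 and 1 of all. The gene with the low unadjusted p was Cd68, the phagocyte lysosomal protein. Its VTA-to-NAc ratio in fentanyl rats had a lowest value of 0.340, a median of 0.642 and a highest of 1.09. In the saline rats the ratios were 1.15, 1.89, 1.92 and 1.61. The ratios of the groups did not overlap, as for 0.5% of all genes on the lower side (0.527% on the higher), although the nearest rats lay at 1.09 with fentanyl and 1.15 with saline. Each saline rat was higher in the VTA, and 5 of 6 fentanyl rats were lower there. The difference was -1.23 ± 0.48 on the log2 scale (95% interval -2.25 to -0.21; edgeR unadjusted p = 0.0207, adjusted p = 0.806). Without female fentanyl rats 1 and 2 it was -0.95 (adjusted p = 0.970). The unadjusted p was no longer under 0.05 in that fit, nor without saline female replicate 2 or saline male replicate 1. Cd68 counts were 5 to 28 a library in the VTA and 8 to 18 in the NAc. For the other 7 genes the differences ran from -0.11 for Itgam to 0.38 for C1qb.

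The first question of the design is what fentanyl changed, and in the NAc 0 of the 7 genes with enough counts passed the test in either sex. Aif1, at 1 to 10 counts a NAc library, fell under the count filter. In females 13.5% of 13248 genes differed between fentanyl and saline (8.05% higher and 5.45% lower), while edgeR called 0 of 7, with 0 at an unadjusted p under 0.05 against 28.9% of all genes; DESeq2 and voom also called 0. Without fentanyl female replicate 2, 4 of the 7 had an unadjusted p under 0.05, against 27.4% of all genes, though 0 passed after adjustment. They were Cx3cr1 (-0.68, edgeR adjusted p = 0.0671), Itgam (-0.61, 0.0721), C1qa (-0.59, 0.107) and Csf1r (-0.30, 0.175). Without saline female replicate 2 it was Cx3cr1 alone (-0.58, adjusted p = 0.162), and with no low-count filter Cx3cr1 and Itgam. In 0 of 7 genes did the female groups lie apart, against 12.3% of all genes on the higher and 12.6% on the lower side. In males edgeR called 0 of 13248 genes (850, or 6.42%, at an unadjusted p under 0.05; DESeq2 called 6). It also called 0 of the 7 in males, with 0 at an unadjusted p under 0.05. As the mean of both sexes, 7.51% of all genes passed and 0 of 7, again with 0 at an unadjusted p under 0.05 against 24.5% of all genes. DESeq2 called 0 of the 6 to which it gave an adjusted p. In the mean, 2 genes had an unadjusted p under 0.05 without fentanyl female replicate 2, Itgam (-0.44, edgeR adjusted p = 0.0636) and Csf1r (-0.26, 0.0989), and the same 2 did so with no low-count filter. Itgam alone did so by voom and without fentanyl male replicate 2, fentanyl male replicate 3 or saline female replicate 4.

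Csf1r had 42.3, 68.7, 39.6 and 56.9 CPM in the NAc of fentanyl females, against 61.4, 55.7 and 54.7 CPM in saline females. In males it had 40.6, 52.3, 49.8 and 56.9 CPM with fentanyl, against 51.2, 58.0 and 66.3 CPM with saline. The groups overlapped in both sexes. The log2 fold change was -0.12 ± 0.16 in females and -0.22 ± 0.16 in males, and the 95% intervals of the fold ran from 0.735 to 1.15 and from 0.682 to 1.08 (edgeR adjusted p = 0.648 and 0.869). These were the narrowest intervals of the 7 genes.

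Cx3cr1 had 8.32, 14.9, 10.4 and 8.24 CPM in fentanyl females against 14.9, 11.0 and 17.3 CPM in saline females. In males it had 9.37, 18.4, 13.9 and 11.9 CPM with fentanyl, against 13.4, 11.8 and 11.6 CPM with saline. In all, 3 of the 4 fentanyl females lay under all saline females, and the groups overlapped through replicate 2. The log2 fold change was -0.43 ± 0.24 in females and 0.14 ± 0.24 in males (edgeR adjusted p = 0.230 and 0.947). The female effect minus the male effect was -0.57 ± 0.34 (edgeR adjusted p = 0.476).

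Itgam had 14.5, 19.5, 11.8 and 9.52 CPM in fentanyl females against 20.4, 18.7 and 15.1 CPM in saline females. In males it had 10.5, 21.0, 19.9 and 17.1 CPM with fentanyl against 20.8, 20.9 and 20.9 CPM with saline. In each sex 3 of 4 fentanyl libraries lay under all saline libraries, and replicate 2 did not. Averaged over the sexes the log2 fold change was -0.32 ± 0.16 (95% interval -0.64 to 0.01; edgeR adjusted p = 0.213). Ptprc had log2 fold changes of 0.20 ± 0.25 in females and -0.35 ± 0.25 in males (edgeR adjusted p = 0.632 and 0.874). Its female effect minus male effect was 0.55 ± 0.36 (edgeR adjusted p = 0.517).

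Cd68 had 4.34, 3.67, 4.21 and 3.09 CPM in fentanyl females against 3.52, 1.80 and 3.34 CPM in saline females. In males it had 3.98, 2.52, 2.88 and 3.36 CPM with fentanyl, against 2.28, 2.42 and 2.52 CPM with saline. The male groups did not overlap, though the closest libraries of both groups held 10 counts each; 1 of 7 genes did this on the higher side, against 4.07% of all genes. The log2 fold change was 0.39 ± 0.34 in females and 0.40 ± 0.37 in males (edgeR adjusted p = 0.474 and 0.905). C1qa had log2 fold changes of -0.30 ± 0.24 in females and 0.31 ± 0.27 in males, and C1qb of -0.24 ± 0.31 and -0.22 ± 0.34 (edgeR adjusted p 0.437 to 0.942). The female effect minus the male effect on C1qa was -0.61 ± 0.36 (edgeR adjusted p = 0.485).

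**Figure D3:**
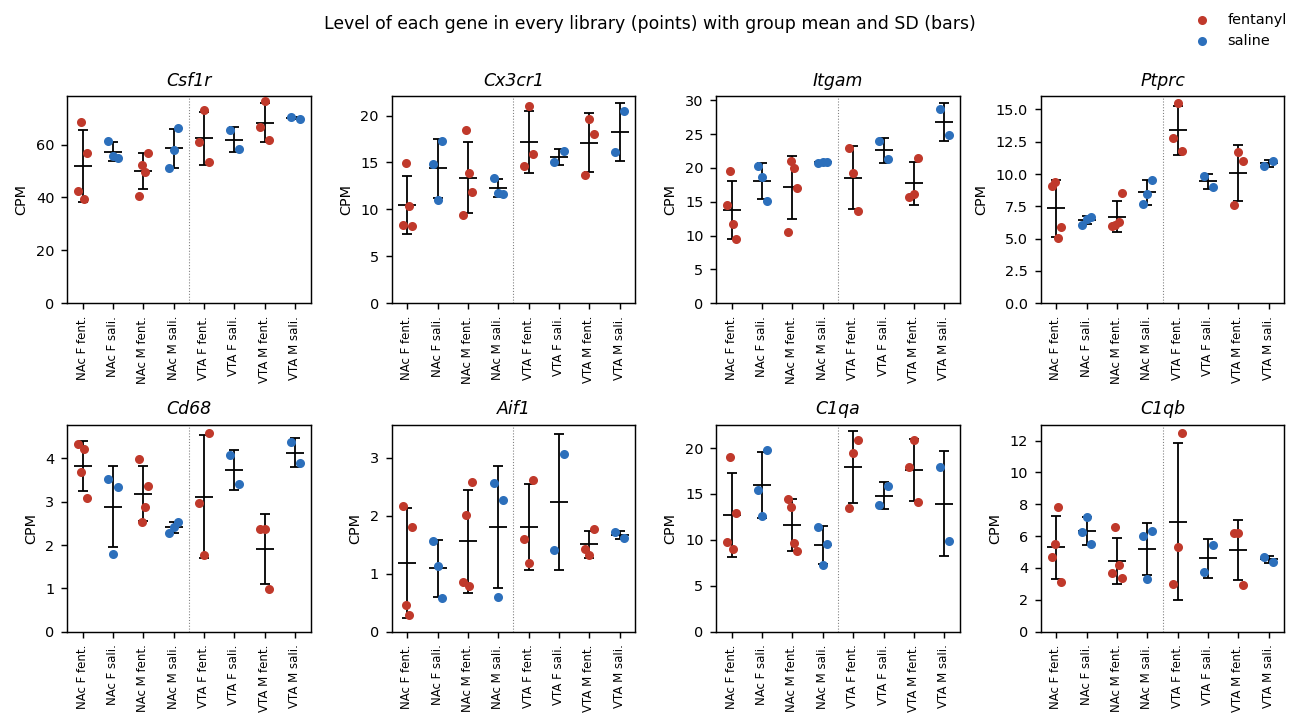
Level of each gene in CPM in every library (points), with the mean and SD of each group (bars), fentanyl to the left of saline within each area and sex. Groups hold 4 fentanyl and 3 saline libraries in the NAc and 3 fentanyl and 2 saline libraries in the VTA; Csf1r has the highest values, up to 76.3 CPM.

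In the NAc of females 5 of the 7 genes had a negative log2 fold change, with a median of -0.24 against 0.00 over all genes tested. In males 4 of the 7 were negative, with a median of -0.22. The female median was -0.10 with replicate number as a block and ran from -0.30 to -0.14 with 1 library left out, being -0.14 without saline female replicate 2 and -0.15 without saline female replicate 4; the male median ran from -0.25 to -0.06. Mitochondrial features took 29.2% to 36.7% of counts in fentanyl and 22.1% to 26.1% in saline females. With those features left out of the totals the female median was -0.24, and 0 of 7 genes passed. Without fentanyl female replicate 1 the median was -0.20, and again 0 of 7 passed. The effect of fentanyl differed between females and males for 0.77% of all genes and 0 of the 7 by edgeR. DESeq2 called 0 of the 5 to which it gave an adjusted p. By edgeR 0 of the 7 had an unadjusted p under 0.05, against 14.1% of all genes. Without fentanyl female replicate 2 that count was 2, C1qa (-0.89, edgeR adjusted p = 0.193) and Cx3cr1 (-0.82, 0.220), against 14.9% of all genes. It was 1 without fentanyl male replicate 1 or saline female replicate 2 (Cx3cr1) and with no low-count filter (C1qa). The intervals of the fold for the 7 genes in females reached from 0.529 for Cx3cr1 at the lower end to 2.13 for Cd68 at the upper end.

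In the VTA 0 of the 8 genes and 0 of 14400 genes passed between fentanyl and saline in females, in males or as their mean (edgeR). DESeq2 called 0 of the 8 in each, and 37, 7 and 39 of all genes. At an unadjusted p under 0.05 stood 0 of 8 genes in females (1098 of all, 7.62%), 2 in males (648, 4.5%) and 1 in the mean (1271, 8.83%). Those in males were Itgam and Cd68, and that in the mean was Itgam. In males the count was 1 by DESeq2 (Itgam) and in each of the 5 fits that left out a library. It was Cd68 without fentanyl male replicate 1 or 2, Itgam without fentanyl male replicate 3 or saline male replicate 3, and C1qa (0.83) without saline male replicate 1. In the mean the count was 0 without saline female replicate 1 and 2 without fentanyl female replicate 7 (Itgam and Cd68). Itgam gave way to C1qa without saline male replicate 1, and to Cd68 with replicate number as a block.

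Itgam had 15.7, 16.1 and 21.4 CPM in the VTA of fentanyl males, against 28.7 and 24.8 CPM in saline males. In females it had 22.9, 19.2 and 13.6 CPM with fentanyl, against 23.9 and 21.3 CPM with saline. All fentanyl males lay under both saline males, and the female groups overlapped. The log2 fold change was -0.61 ± 0.22 in males (edgeR unadjusted p = 0.0175, adjusted p = 0.956), -0.29 ± 0.23 in females (adjusted p = 0.782) and -0.45 ± 0.16 as the mean (unadjusted p = 0.0148, adjusted p = 0.469).

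Cd68 had 2.38, 2.37 and 0.982 CPM in the VTA of fentanyl males, against 4.37 and 3.89 CPM in saline males, from 15, 16 and 5 counts against 28 and 24. Again no fentanyl male reached a saline male; Itgam and Cd68 are 2 of 8 genes whose male groups did not overlap on the lower side, against 12.5% of all genes. The log2 fold change was -1.08 ± 0.49 (0.472-fold, 95% interval 0.226 to 0.984; edgeR unadjusted p = 0.0459, adjusted p = 0.956). In VTA females, where Cd68 had 2.98, 1.76 and 4.59 CPM with fentanyl against 4.07 and 3.41 CPM with saline, it was -0.24 ± 0.49 (adjusted p = 0.930). The female effect minus the male effect was 0.84 ± 0.70 (adjusted p = 1.00). For this sex difference 0 of the 8 genes and 0 of all genes passed by edgeR, with 0 of the 8 and 3.31% of all at an unadjusted p under 0.05; DESeq2 called 0 of the 8 and 1 of all.

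Ptprc had 12.8, 15.5 and 11.8 CPM in the VTA of fentanyl females, against 9.85 and 9.03 CPM in saline females. These groups did not overlap, as for 10.6% of all genes on the higher side, and the log2 fold change was 0.51 ± 0.25 (edgeR adjusted p = 0.666). In males it was -0.11 ± 0.25, with overlapping groups. Csf1r, the most precisely measured gene, had log2 fold changes of 0.02 ± 0.16 in females and -0.04 ± 0.16 in males, with 95% intervals of the fold from 0.799 to 1.28 and from 0.770 to 1.23. Cx3cr1 had 0.15 ± 0.23 and -0.10 ± 0.23, and C1qa 0.29 ± 0.28 and 0.34 ± 0.28, in females and males. C1qb had 0.63 ± 0.53 in females, where fentanyl replicate 7 had 12.5 CPM and the other two fentanyl libraries 2.98 and 5.29 CPM, against 3.75 and 5.45 CPM with saline. Aif1 had -0.27 ± 0.57 in females and -0.16 ± 0.59 in males. Without fentanyl female replicate 2, the library that stood apart, 0 of 8 genes passed.

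**Figure D4:**
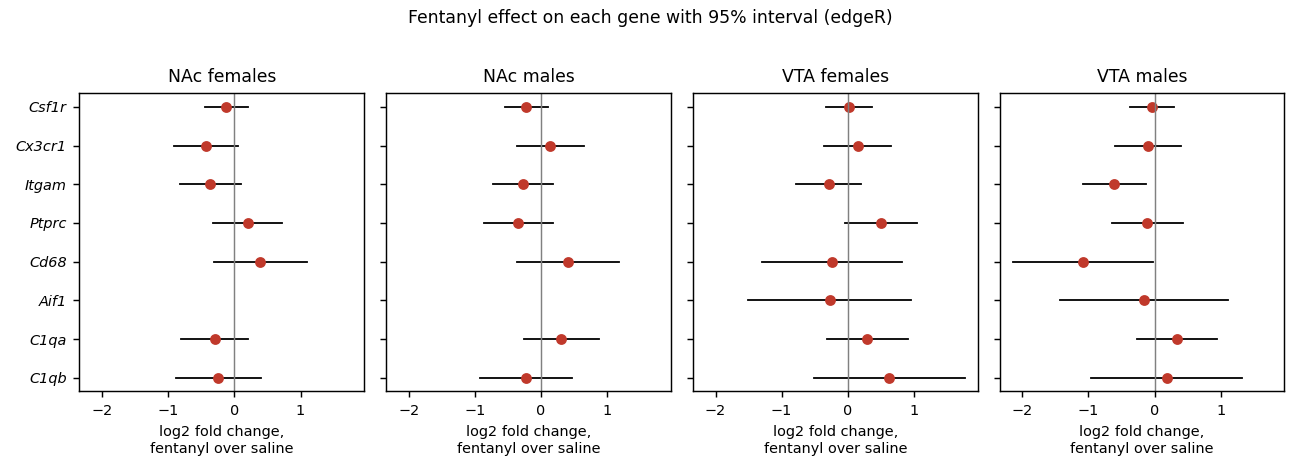
Log2 fold change, fentanyl over saline, of each gene (points) with its 95% interval (bars) in females and males of the NAc and VTA, from edgeR. Intervals of Csf1r are the narrowest and those of Aif1, Cd68 and C1qb the widest; Itgam and Cd68 in VTA males are the intervals that lie under 0. Aif1 was not tested in the NAc.

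Saline females were also compared with saline males in the NAc, as the background of sex without drug. By edgeR 0.377% of all genes passed and 0 of 7, with 1 at an unadjusted p under 0.05 against 11.5% of all genes. DESeq2 called 0 of the 6 to which it gave an adjusted p. C1qa had 15.5, 12.6 and 19.8 CPM in saline females, against 11.4, 7.25 and 9.57 CPM in saline males. The groups did not overlap (10.3% of all genes on the higher side), and the log2 difference was 0.76 ± 0.27 (edgeR unadjusted p = 0.0105, adjusted p = 0.272). The unadjusted p was no longer under 0.05 without saline male replicate 3 or saline female replicate 4. Itgam and Ptprc lay lower in every saline female than in every saline male, 2 of 7 genes against 10.2% of all genes, with log2 differences of -0.21 ± 0.23 and -0.42 ± 0.26 (edgeR adjusted p = 0.795 and 0.581). In fentanyl rats C1qa had 9.77, 19.1, 8.98 and 12.9 CPM in females against 14.5, 13.6, 9.70 and 8.79 CPM in males, with overlap.

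Within groups of the same area, sex and treatment, libraries differed by more than counting for most genes. The variance over that expected from counting alone, pooled over the 8 groups (16 degrees of freedom), was 5.52 for Csf1r, 4.26 for C1qa, 3.95 for C1qb, 3.51 for Itgam and 2.96 for Cx3cr1. It was 1.75 for Aif1, 1.24 for Ptprc and 1.02 for Cd68, so the spread of Cd68 was about that of its counts. The summed level of the 8 genes ran from 88.1 to 141 CPM over the 4 fentanyl females of the NAc, a range that held all 3 saline females at 115 to 130 CPM.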

How the data were processed

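Counts are raw whole-number counts per Ensembl rat gene, 1 deposited table per library, which the authors did not normalize. The submitters' processing notes name STAR 2.5.2b, Trimmomatic 0.36, Subread 1.5.2, DESeq2 and featureCounts without roles; the sources used here do not give the build, annotation, strand setting or handling of multi-mapping reads. Labels gave area, sex, treatment and rat. The gene symbols come with the list of identifiers, since 0 identifiers matched a symbol in the reference table. The genes, lists and comparisons were chosen with earlier results of these data known; all 8 genes are described in every comparison.

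All genes were fitted with edgeR 4.0.16 in R 4.3.3 (TMM scaling, filterByExpr, robust quasi-likelihood F tests, two-sided) and p-values were adjusted by Benjamini-Hochberg over all genes tested, with calls at 0.05. The 4 groups of an area were fitted together and so share a single estimate of spread. Areas were compared within 10 rats with rat as a block, since the animal code is shared. Libraries of the same rat had a mean residual correlation of 0.0348 (10 pairs, -0.0281 to 0.131). Between rats it was -0.00265 (130 pairs, -0.114 to 0.134), a range that holds the former, so the pairing rests on the code. Standard errors were derived from the F statistic. CPM use TMM-scaled totals of all 24 libraries; log2 CPM used a prior count of 2. No library pair of a group agreed within counting noise (chi-square over degrees of freedom 2.61 to 20.9, 26 pairs). The labels state about 22 M reads a sample and RNA integrity numbers of 8.0 to 9.2. Intervals of folds are 95% intervals of the fit. Alternatives were DESeq2 1.42.0, limma voom 3.58.1, RLE scaling, no low-count filter, no mitochondrial features, other blocks, only the groups compared, and each library left out.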

Additional observations from a re-analysis of the deposited data

Results flagged for a closer look

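Ptprc in the NAc of fentanyl males lay at 8.53 CPM in replicate 7 and at 5.97, 6.06 and 6.29 CPM in replicates 1, 2 and 3. The gap from replicate 7 to the nearest library is 0.873 of the group's range, more than is usual for 4 values; 16 groups were examined and chance alone picks out about 1 group in 20. The 3 saline males, at 7.69, 8.46 and 9.57 CPM, lie around that replicate.

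Cd68 had fold changes of opposite sign in the 2 areas of males. In the VTA every fentanyl male lay under every saline male (log2 fold change -1.08), and in the NAc every fentanyl male lay over every saline male (0.40). Of all genes, 12.5% lay apart on the lower side in VTA males and 4.07% on the higher side in NAc males. The share that did both was not computed. In the NAc the closest libraries of the 2 groups held 10 counts each. The difference between the areas, tested in the males that gave both, was -1.53 (edgeR unadjusted p = 0.0429, adjusted p = 1.0), a test added after the data were seen. In females it was -0.93 (unadjusted p = 0.180, adjusted p = 0.656). By edgeR 1 of the 8 genes, Cd68, had an unadjusted p under 0.05 in males, against 3.33% of all genes. In females 0 of the 8 did, against 10.3% of all genes. The counts behind the male values are 5 to 28 a library.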

How the results depend on the processing

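Of 631 values under the alternatives that keep all libraries, 616 stayed on the same side of the threshold with the same direction, 1 passed it and 14 changed sign; leaving out 1 library or rat gave 749 of 816 unchanged in that sense, with 1 that passed, 1 that no longer passed and 65 that changed sign. No sign change touched a called value. In all 164 fits of fentanyl or sex effects and of their difference between areas, 0 of the 8 genes were called. The number called between the areas of saline rats was 1 without mitochondrial features (Ptprc), against 0; between the areas of all 10 rats it was 4 to 5, and of fentanyl rats 3 to 4, when 1 rat was left out. The labels do not say that equal numbers in the animal codes mark a shared litter or batch, and within an area residuals of same-numbered rats correlated, on average, at -0.00734 (12 NAc pairs) and 0.00119 (10 VTA pairs). With that replicate block, signs changed for Ptprc in the NAc mean (0.04), for the NAc sex difference of the effect in Itgam (0.12), Cd68 (0.039) and C1qb (0.26), and in the VTA for C1qb (-0.16 in females, -0.13 in males, -0.14 in the mean, -0.030 for the sex difference), Csf1r (0.0048) and Cx3cr1 (-0.0018 in the mean). The block changed no call of the 8 genes, nor did leaving the rat out of the area fits (no replicate block). C1qa in the NAc mean was -0.0087 with no low-count filter and -0.016 by voom, and the NAc sex difference of Cd68 3.9e-05 with RLE size factors and 0.055 by voom. Without female fentanyl rats 1 and 2, chosen after the data were seen, C1qb between the areas was 0.056. The cause of these changes was not tested.

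The values that changed sign when 1 library or rat was left out all failed the test. In NAc males they ran from -0.054 to 0.27 for Cx3cr1. In the NAc mean of both sexes they ran from -0.14 to 0.094 for C1qa. For the NAc female minus male effect they ran from -0.34 to 0.060 for Itgam, -0.24 to 0.16 for Cd68, -0.27 to 0.23 for C1qb and -0.073 to 0.21 for Csf1r. For NAc saline females minus males they ran from -0.12 to 0.067 for Csf1r. In VTA females they ran from -0.73 to 0.37 for Aif1, -0.66 to 0.041 for Cd68, -0.13 to 0.97 for C1qb, -0.11 to 0.12 for Csf1r and -0.019 to 0.25 for Cx3cr1. In VTA males they ran from -0.021 to 0.83 for C1qa, -0.23 to 0.059 for Ptprc, -0.13 to 0.037 for Csf1r and -0.27 to 0.088 for Cx3cr1. In the VTA mean of both sexes they ran from -0.44 to 0.10 for Aif1, -0.076 to 0.040 for Csf1r and -0.060 to 0.12 for Cx3cr1. For the VTA female minus male effect they ran from -0.57 to 0.53 for Aif1, -0.54 to 0.31 for C1qa, -0.32 to 0.78 for C1qb and -0.074 to 0.16 for Csf1r. For VTA minus NAc in all 10 rats they ran from -0.034 to 0.14 for Cd68 and -0.19 to 0.030 for C1qb. In fentanyl rats they ran from -0.10 to 0.22 for C1qb. For the VTA-NAc difference in fentanyl minus saline rats they ran from -0.33 to 0.85 for Aif1, -0.21 to 0.017 for Itgam and -0.077 to 0.20 for Cx3cr1. With 1 saline library of a sex left in the VTA, the lone library is assumed to vary like the other groups.

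Counts over all genes that moved by more than 1.5 times were these, given as ranges where 1 library was left out. In NAc females 1102 genes passed when only the female groups were fitted, against 1788, and 755 to 2018 with 1 library left out. In NAc males the count was 6 by DESeq2, 46 with no filter 2 when fentanyl male replicate 3 was left out and 2 when males were fitted by themselves, against 0. For the NAc mean it was 341 with the replicate block, against 995, and 315 to 1299 with 1 library left out. For the sex difference of the NAc effect it was 256 by DESeq2, 388 with no filter, 236 with the block and 20 to 299 with 1 library left out, against 102; for saline females minus males it was 120, 210, 13 and 10 to 57, and 218 with these groups alone, against 50. In the VTA, against 0, it was 37 by DESeq2, 418 with no filter and 5 with the groups alone in females, 7, 114 and 2 in males, 39, 499 and 1 (the block) in the mean, and 1 and 109 for the sex difference. With 1 library left out it was up to 11 in females (11 without fentanyl female replicate 2, 6 without saline female replicate 1), 0 in males, up to 2 in the mean and up to 5 for the sex difference (the last 2 highest without saline female replicate 1). For the area difference in fentanyl minus saline rats it was 1 by DESeq2, 148 with no filter and 2 without female fentanyl rats 1 and 2, against 0, and it was 1 without fentanyl male replicate 1. Depth limits Aif1 and Cd68 most, at 1 to 18 and 5 to 28 counts a library.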

Other observations

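After removing group means, the 8 genes did not vary as a tight set at the depth of these libraries. Counting error lowers a correlation, by an amount not tested here. The variance within groups was 1.02 times that expected from counting for Cd68, 1.24 times for Ptprc and 1.75 times for Aif1. The correlation of each gene with the mean of the other 7 over the 24 libraries, which share depth and composition, was 0.43 for Cx3cr1, 0.40 for Csf1r, 0.36 for C1qa, 0.32 for Ptprc, 0.20 for Itgam, 0.13 for C1qb, -0.01 for Aif1 and -0.14 for Cd68. Of 10932 other genes averaging 5 CPM or more, 5.88% had as high a correlation with the same mean as Cx3cr1, and 64.6% as high as Cd68. Cd68 itself lay under 5 CPM, at most 4.59 CPM in the VTA and 4.34 CPM in the NAc. Its share therefore sets it against genes with more counts. The genes most like the mean of all 8 were ENSRNOG00000017029 (r = 0.84, chromosome 8, 71745896 to 71784551) and ENSRNOG00000011784 (r = 0.82, chromosome 9, 13493709 to 13513960), which carry no name in the data. They are the top of 10932 values, and how high such a top value stands by chance was not tested.

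Over the 14 NAc libraries, 18 of the 28 pairs of the 8 genes had a positive correlation around group means, with a median r of 0.09 and a range of -0.28 to 0.66. By exact permutation within groups 0 of 28 had a p under 0.05, before or after adjustment. The highest was Itgam with Cx3cr1 (r = 0.658, exact permutation p = 0.0675, adjusted p = 0.897; rho = 0.477, p = 0.162), and without the 2 libraries farthest out in Itgam its r was 0.347. C1qa with C1qb had r = 0.09.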
